A study of Mus musculus with 14 samples.

Results

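The enzymes of the mevalonate pathway up to squalene were examined in RNA-seq data from mouse forelimb buds. The genes were chosen by symbol: *Acat2*, *Mvk*, *Pmvk*, *Mvd*, *Idi1*, *Fdps*, *Ggps1* and *Fdft1*, which are 8 of the 23284 gene symbols counted in each of 14 samples. The study asked which transcripts depend on SMAD4, the shared SMAD that carries BMP and TGFβ signals into the nucleus, in early limb buds. Forelimb buds came from NMRI embryos with 30 somites (E10.0) or with 35 somites (E10.5), and both forelimb buds of 1 embryo were pooled for each replicate. At each stage, 3 wild-type and 4 *Smad4*Δ/Δc embryos were sequenced, and the embryos of both genotypes carried the PrxCreT/+ transgene. Wild-type embryos were *Smad4*+/+, whereas *Smad4*Δ/Δc embryos had 1 constitutive null allele and 1 floxed allele deleted by the transgene. As the *Prrx1* regulatory sequences drive CRE in the limb bud mesenchyme, the ectoderm, endothelium and blood of the mutant buds still carry 1 intact allele.

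The mevalonate pathway builds isoprenoids from acetyl-CoA. Its trunk ends in farnesyl diphosphate, from which squalene synthase opens the route to cholesterol, while other enzymes draw on the same pool to make the lipid tails of prenylated proteins, dolichol and coenzyme Q. Most genes of the trunk and of the sterol branch respond to SREBP transcription factors when cellular sterols run low. In embryos, cholesterol is a membrane component and also modifies Hedgehog ligands, which pattern the limb bud.

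Levels are given as CPM, the reads of a gene scaled to a common library size with TMM factors. Between 34066930 and 61691258 reads per sample were assigned to genes, so that even the least abundant of the 8 transcripts rested on at least 762 reads in every sample. *Smad4* transcripts lay at 152.2 to 169.1 CPM in wild-type and 36.9 to 46.0 CPM in mutant buds at E10.0, and at 163.2 to 167.2 CPM and 32.9 to 40.7 CPM at E10.5, which placed every library with its labelled genotype. The reads were counted over the whole gene, so they do not single out the deleted part. In 4 mutant libraries, replicates 4 and 5 of both stages, the ribosomal RNA precursor *Rn45s* took 1.72% to 8.05% of the reads, compared with 0.151% to 0.478% in the other 10 libraries. No wild-type library had such a share, and within both mutant groups *Acat2* and *Idi1* were lower, and *Mvk*, *Pmvk* and *Mvd* higher, in these libraries than in the other mutants. Results are therefore also given for replicates 1 to 3 alone. These keep all wild-type embryos but only mutant replicates 1 and 3 at E10.0 and mutant replicates 1 and 2 at E10.5. The part of this difference between libraries in the results was not tested. In whole buds, fewer cells of a type and less RNA per cell cannot be told apart. Of the marker genes for limb mesenchyme, 4 of 5 were called lower in mutant buds at E10.0, with summed levels of 857.3 to 991.4 CPM compared with 1056.4 to 1224.9 CPM in wild-type buds. Of the ectodermal markers, 1 of 8 was lower (198.5 to 276.6 compared with 244.8 to 303.7 CPM), and of the endothelial, erythroid and muscle precursor markers none was called, nor was the 1 neural crest marker tested. Mesothelial markers were higher for 3 of 3 tested (10.2 to 23.1 compared with 2.40 to 4.2 CPM), and macrophage markers for 2 of 4 tested (5.63 to 7.23 compared with 2.47 to 5.04 CPM). At E10.5, 3 of 5 mesenchymal markers were lower, at 999.3 to 1088.6 compared with 1273.7 to 1329.1 CPM, and 2 mesothelial markers were lower (1.5 to 3.26 compared with 3.77 to 6.39 CPM), as was the 1 neural crest marker tested. Between stages, macrophage markers were higher at E10.5 for 4 of 4 tested in both genotypes, at 10.4 to 12.1 CPM in the wild type and up to 17.7 CPM in the mutants. Of the ectodermal markers, 1 was lower with stage in the wild type (230.0 to 247.6 CPM at E10.5), and in the mutants 2 were lower and 1 was higher. The 3 mesothelial markers tested were lower with stage in the mutants, whereas 1 was higher in the wild type. Of the muscle precursor markers 1 was lower with stage in each genotype, 1 endothelial marker was lower in the mutants and 1 mesenchymal marker was higher in the mutants. No marker was at 0 in all samples, and the part of cell composition in the results that follow was not tested.

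At E10.0, loss of mesenchymal *Smad4* went with lower transcripts of 7 of the 8 enzymes, and *Ggps1* was the exception. The 7 transcripts fell to between 55.5% (*Mvd*) and 74.2% (*Pmvk*) of their wild-type level. For each of the 7, every mutant embryo lay below every wild-type embryo. A gene was called when its difference, tested in edgeR by the exact test and adjusted over all genes by the Benjamini-Hochberg method, had an adjusted *P* no higher than 0.1 and a size of 1.2-fold or more. By this rule 3.28% of the 12393 genes tested were lower in mutant buds (10.2% with replicates 1 to 3 alone), and in 9.78% every mutant embryo lay below every wild-type embryo. The median log2 fold change was -0.59 for the 8 enzymes and -0.02 for all genes. The study itself singled out cholesterol synthesis enzymes in these samples, so these counts are not independent evidence of a direction.

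The first enzyme is encoded by *Acat2* (cytosolic thiolase, which joins acetyl-CoA units; mm9, chromosome 17, 13135756-13153613, minus strand). Its levels were 194.4, 195.0 and 197.0 CPM in wild-type embryos and 154.1, 151.9, 117.1 and 126.2 CPM in mutant embryos at E10.0. The mutants were well apart from a tight wild-type group, with a log2 fold change of -0.51 ± 0.0978 (SE, *n*=3 and 4; adjusted *P*=0.000418). The lowest values came from replicates 4 and 5, and with replicates 1 to 3 alone the log2 fold change was -0.34. Transcripts of the mitochondrial thiolase *Acat1* averaged 42.4 CPM in wild-type and 41.5 CPM in mutant buds, and this gene was not called.

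The 3 enzymes that convert mevalonate into isopentenyl diphosphate by successive phosphorylation and decarboxylation are encoded by *Mvk*, *Pmvk* and *Mvd*. *Mvk*, the mevalonate kinase (mm9, chromosome 5, 114894278-114910600, plus strand), was at 33.7, 36.2 and 36.5 CPM in wild-type and at 18.9, 22.7, 27.7 and 24.9 CPM in mutant embryos. *Pmvk*, the phosphomevalonate kinase (mm9, chromosome 3, 89263040-89272935, plus strand), was at 32.1, 34.1 and 36.4 CPM in wild-type and at 21.1, 22.8, 30.3 and 27.4 CPM in mutant embryos. *Mvd*, the mevalonate diphosphate decarboxylase (mm9, chromosome 8, 124957496-124967322, minus strand), was at 50.8, 54.5 and 60.1 CPM in wild-type and at 22.6, 26.0, 39.1 and 34.9 CPM in mutant embryos. For all 3 the groups did not overlap, but the mutants were spread widely, with replicates 4 and 5 nearest to the wild type. The log2 fold change was -0.59 ± 0.118 for *Mvk* (SE; adjusted *P*=0.00228), -0.43 ± 0.126 for *Pmvk* (adjusted *P*=0.0409) and -0.85 ± 0.190 for *Mvd* (adjusted *P*=4.21e-05). With replicates 1 to 3 alone these values were -0.75, -0.62 and -1.16. *Pmvk* was the least secure of the 7, as its call was lost without mutant replicate 1 (adjusted *P*=0.158), mutant replicate 3 (0.119), wild-type replicate 2 (0.106) or wild-type replicate 3 (0.331). The other 6 calls held when any 1 embryo was left out.

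*Idi1* and *Fdps* encode the enzymes that isomerize isopentenyl diphosphate and assemble the isoprene units into farnesyl diphosphate, and they were among the more abundant transcripts. *Idi1* (mm9, chromosome 13, 8884852-8891641, plus strand) was at 319.9, 339.4 and 311.6 CPM in wild-type and at 241.5, 213.6, 166.4 and 201.4 CPM in mutant embryos. *Fdps* (mm9, chromosome 3, 88897514-88905881, minus strand) was at 261.6, 277.9 and 278.5 CPM in wild-type and at 166.7, 167.5, 174.6 and 177.4 CPM in mutant embryos. *Fdps* separated the genotypes by far more than the embryos of a group differed, and its mutant values differed by little between the libraries rich in *Rn45s* (174.6 and 177.4 CPM) and the other mutants (166.7 and 167.5 CPM). The log2 fold change was -0.65 ± 0.117 for *Idi1* (SE; adjusted *P*=4.50e-06) and -0.67 ± 0.0368 for *Fdps* (adjusted *P*=9.98e-11). With replicates 1 to 3 alone it was -0.49 and -0.69.

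The pathway divides at farnesyl diphosphate, and of the branch enzymes *Fdft1* was called and *Ggps1* was not. *Ggps1*, which extends farnesyl diphosphate to the geranylgeranyl diphosphate used to anchor small GTPases in membranes (mm9, chromosome 13, 14144637-14155668, minus strand), was at 43.2, 46.5 and 45.6 CPM in wild-type and at 49.9, 52.1, 41.6 and 50.1 CPM in mutant embryos. These groups overlapped, and the log2 fold change of 0.10 ± 0.0774 (SE; adjusted *P*=0.602) missed the threshold. The overlap came from mutant replicate 4, as the other 3 mutants lay above every wild-type embryo, and the log2 fold change was 0.17 without that embryo (adjusted *P*=0.233) and 0.19 with replicates 1 to 3 alone (adjusted *P*=0.111). *Fdft1*, the squalene synthase that commits farnesyl diphosphate to sterols (mm9, chromosome 14, 63763990-63796630, minus strand), was at 168.8, 161.3 and 182.7 CPM in wild-type and at 113.6, 108.5, 109.8 and 119.9 CPM in mutant embryos. The mutants kept within a narrow range well below the wild type, with a log2 fold change of -0.60 ± 0.0614 (SE; adjusted *P*=1.49e-09), and of -0.61 with replicates 1 to 3 alone.

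**Figure D1:**
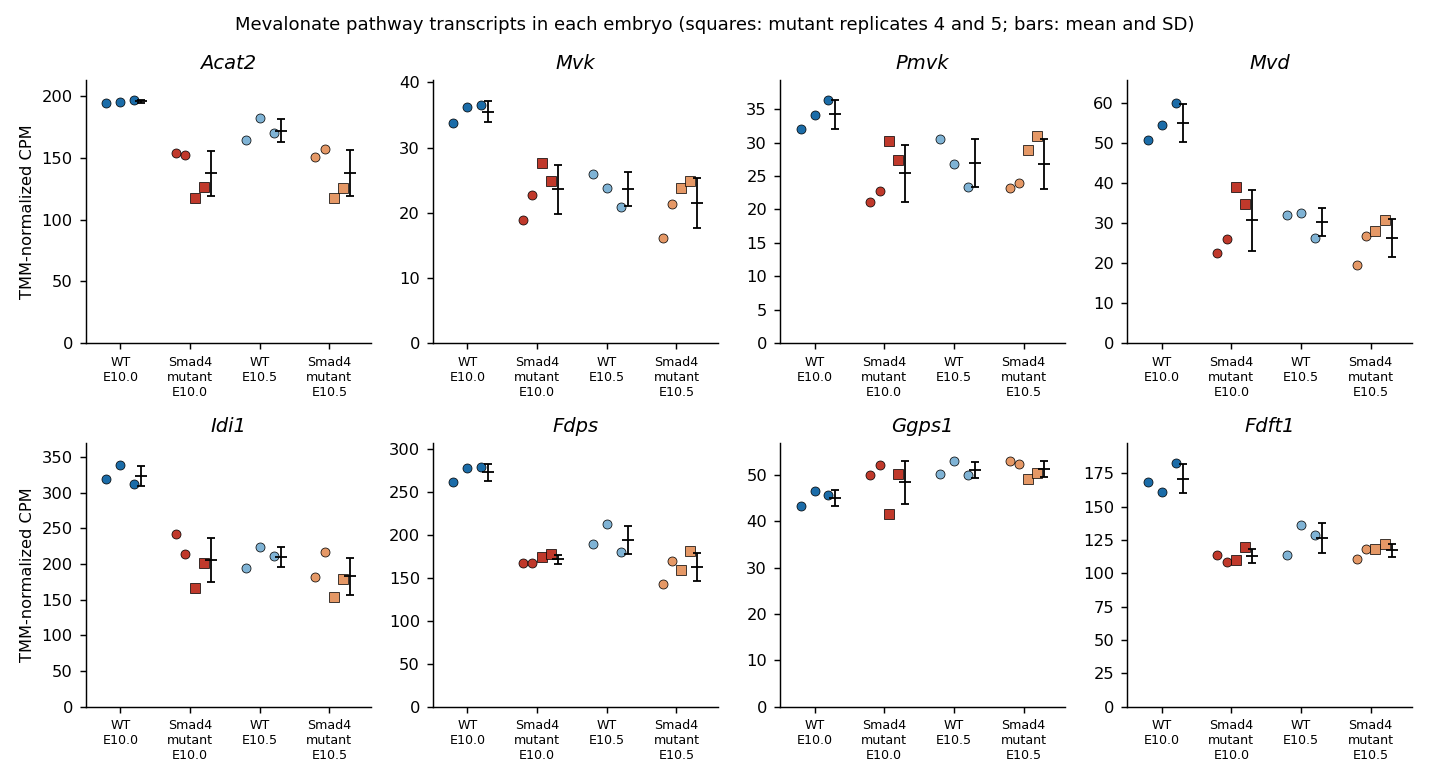
TMM-normalized CPM (vertical axes from 0) of the 8 pathway transcripts in each of 14 embryos, by genotype and stage. Points are embryos, squares are mutant replicates 4 and 5, and bars give the mean and SD. In 7 panels the wild-type group at E10.0 stands above the mutant group of that stage. The *Ggps1* groups of that stage overlap, at 43.2 to 46.5 CPM in wild-type and 41.6 to 52.1 CPM in mutant embryos.

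As *Fdps*, *Ggps1* and *Fdft1* are counted in the same library, the reads of one per read of another do not depend on how libraries are scaled. These ratios were chosen after the values had been seen and are given without a test. At E10.0, wild-type embryos had 3.91, 3.47 and 4.00 *Fdft1* reads per *Ggps1* read and mutant embryos had 2.27, 2.08, 2.64 and 2.39. The mean was 3.79 ± 0.286 (SD, *n*=3) in the wild type and 2.35 ± 0.232 (SD, *n*=4) in the mutants, with no overlap. For *Fdps* per *Ggps1* read the values were 6.05, 5.98 and 6.10 in wild-type and 3.34, 3.22, 4.19 and 3.54 in mutant embryos, again without overlap. At E10.5, the mean *Fdft1* reads per *Ggps1* read were 2.48 ± 0.179 in the wild type and 2.29 ± 0.156 in the mutants, and here the embryos overlapped. The wild-type ratio at E10.5, at 2.27 to 2.58, lay within the range of the E10.0 mutants. For *Fdps* per *Ggps1* read the E10.5 means were 3.80 ± 0.191 in the wild type and 3.18 ± 0.376 in the mutants, all below the E10.0 wild type.

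**Figure D2:**
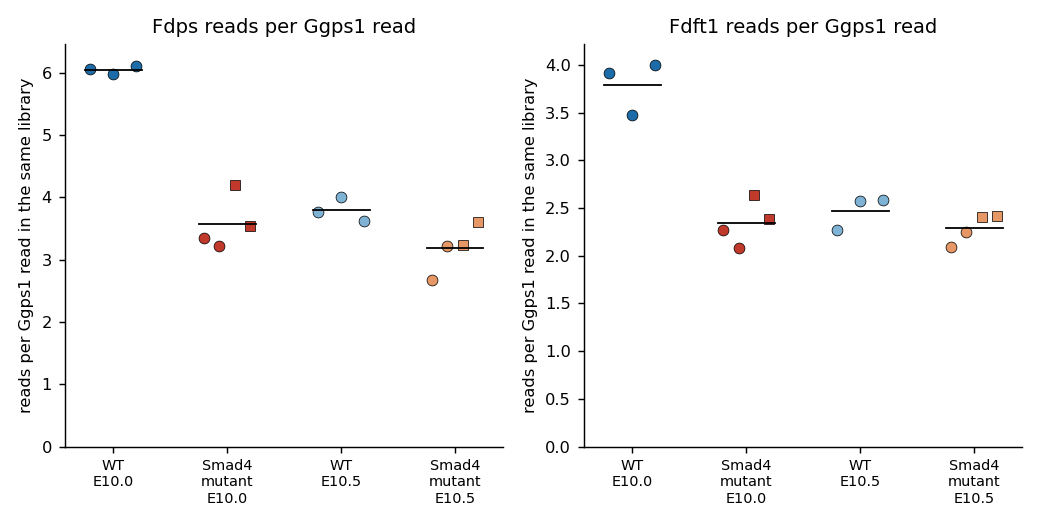
Reads of *Fdps* (left) and *Fdft1* (right) per *Ggps1* read in the same library (vertical axes, from 0), by group; points are embryos, squares are mutant replicates 4 and 5 and lines are group means. The 3 wild-type embryos at E10.0 stand apart at 5.98 to 6.10 and 3.47 to 4.00, above all other embryos.

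At E10.5, *Acat2* was called lower in mutant buds and the other 7 enzymes were not, while 1.54% of all genes were called lower. *Acat2* was also the single enzyme for which every mutant embryo lay below every wild-type embryo, a pattern seen in 6.40% of genes. The median log2 fold change of the 8 enzymes was -0.17. *Acat2* was at 164.2, 181.9 and 169.6 CPM in wild-type and at 150.3, 156.8, 117.5 and 125.9 CPM in mutant embryos, with a log2 fold change of -0.32 ± 0.108 (SE; adjusted *P*=0.0982). This call stood close to the threshold: it was kept in 2 of the 7 fits that left out 1 embryo and lost without mutant replicate 4 (0.399) or 5 (0.346) or any wild-type replicate (0.176, 0.540 and 0.249 for replicates 1 to 3). With replicates 1 to 3 alone the log2 fold change was -0.15 (adjusted *P*=0.356). *Fdps* was at 189.5, 212.0 and 180.4 CPM in wild-type and at 142.3, 168.9, 158.7 and 181.1 CPM in mutant embryos. The groups met at a single embryo, mutant replicate 5, and the log2 fold change of -0.25 ± 0.10 (SE; adjusted *P*=0.124) missed the threshold. Without that embryo it was -0.31 (adjusted *P*=0.0413), and with replicates 1 to 3 alone it was also -0.31 (adjusted *P*=0.0371). For the other 6 transcripts the genotypes overlapped and the adjusted *P* was 0.603 or more, with log2 fold changes of -0.20 for *Idi1* and *Mvd*, -0.14 for *Mvk*, -0.11 for *Fdft1*, -0.01 for *Pmvk* and 0.01 for *Ggps1*. With replicates 1 to 3 alone these became -0.07 for *Idi1*, -0.37 for *Mvd* (adjusted *P*=0.143), -0.33 for *Mvk* (adjusted *P*=0.218), -0.13 for *Fdft1*, -0.18 for *Pmvk* and 0.06 for *Ggps1*, none called. Leaving out mutant replicate 1, the lowest of its group for both genes, gave -0.07 for *Mvd* and -0.01 for *Mvk*, and the fits without 1 embryo reached -0.29 and -0.21. A missed threshold does not show that the genotypes were alike, since the SE of these differences reached 0.168 for *Mvd*.

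Between E10.0 and E10.5, transcripts of 5 of the 8 enzymes declined in the wild type. These were *Mvk*, *Mvd*, *Idi1*, *Fdps* and *Fdft1*, and 4.74% of all genes were called lower. Every E10.5 embryo lay below every E10.0 embryo for 7 enzymes, compared with 20.4% of genes, and every E10.5 embryo lay above for *Ggps1*, compared with 16.6% of genes. As the wild-type embryos at E10.0 serve in this comparison and in that between genotypes at E10.0, a high or low value in these 3 embryos enters both.

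*Mvd* changed most with stage in the wild type, from 50.8, 54.5 and 60.1 CPM to 32.1, 32.6 and 26.2 CPM, a log2 fold change of -0.87 ± 0.120 (SE; adjusted *P*=8.02e-05). *Idi1* went from between 311.6 and 339.4 CPM to 195.1, 223.6 and 211.2 CPM, a log2 fold change of -0.62 ± 0.0674 (adjusted *P*=5.08e-05). *Mvk* reached 26.0, 23.8 and 20.9 CPM at E10.5, with a log2 fold change of -0.59 ± 0.0956 (adjusted *P*=0.00397). All 3 enzymes act in making or isomerizing isopentenyl diphosphate. *Fdps* changed by -0.49 ± 0.0746 on the log2 scale (SE; adjusted *P*=3.54e-05), and *Fdft1*, at 113.9, 136.5 and 128.8 CPM at E10.5, by -0.44 ± 0.0925 (adjusted *P*=0.000128). *Pmvk*, at 30.5, 26.8 and 23.4 CPM, had a log2 fold change of -0.34 (adjusted *P*=0.136) and *Acat2* of -0.19 (adjusted *P*=0.371), neither past the threshold. *Pmvk* passed it when E10.5 wild-type replicate 1 was left out (-0.44, adjusted *P*=0.0772). *Pmvk* also passed with replicates 1 to 3 alone (-0.33, adjusted *P*=0.0209). That fit holds the same wild-type embryos and differs only in the mutants that enter the filter, normalization and dispersion. *Ggps1*, at 50.2, 53.0 and 49.9 CPM, was higher at E10.5 by 0.18 ± 0.0415 (adjusted *P*=0.272), which was not called. The 5 calls were kept in each of the 6 fits that left out 1 wild-type embryo.

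In *Smad4*Δ/Δc forelimb buds, none of the 8 enzymes was called from E10.0 to E10.5, and 8.40% of all genes were called lower with stage in the mutants. In the unpaired fit none reached an unadjusted *P* of 0.05 by edgeR's exact test, a level passed by 29.4% of genes. No enzyme had all E10.5 mutants below all E10.0 mutants, as 8.91% of genes had. In either direction, 2374 of the 12393 genes tested were called, 1041 lower and 1333 higher. At these shares of called and of fully separated genes, having none among 8 does not set the enzymes apart from other genes. The log2 fold changes ran from -0.22 (*Mvd*, SE 0.224, adjusted *P*=0.360) to 0.08 (*Ggps1* and *Pmvk*), with a median of -0.04. *Mvd* was at 19.6, 26.9, 28.0 and 30.9 CPM in mutants at E10.5, and was called only when mutant replicate 1 of E10.0, the lowest of its group, was left out (-0.34, adjusted *P*=0.0875). Of the others, *Idi1* at E10.5 was at 182.3, 216.3, 154.1 and 178.4 CPM in mutant embryos (log2 fold change -0.17, adjusted *P*=0.293). *Mvk* was at 16.1, 21.3, 23.8 and 24.8 CPM, *Pmvk* at 23.2, 24.0, 28.9 and 31.0 CPM, *Ggps1* at 53.0, 52.4, 49.2 and 50.4 CPM and *Fdft1* at 110.7, 118.1, 118.3 and 122.0 CPM. All of these ranges overlapped those of the E10.0 mutants. Mutant replicates 1, 4 and 5 occur at both stages, with correlations of 0.571, 0.611 and 0.269 between same-numbered samples. Differently numbered samples across stages reached 0.383. These are different embryos, and their pairing was inferred from the data. As an alternative they were compared as pairs, by edgeR's quasi-likelihood test blocked on the replicate number. *Idi1*, *Mvd* and *Mvk* were lower at E10.5 in 3 of 3 pairs, and *Ggps1* was higher in 3 of 3. *Acat2*, *Pmvk*, *Fdps* and *Fdft1* went both ways. The share of all genes with 3 of 3 pairs in one direction was not counted, so these patterns are a description only. For *Idi1* the blocked log2 fold change was -0.23 (adjusted *P*=0.0474), which passed the FDR but not the fold threshold, for *Mvd* it was -0.29 (adjusted *P*=0.106) and for *Mvk* -0.15 (adjusted *P*=0.298).

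Set side by side, the E10.0 mutant and E10.5 wild-type means were 23.6 and 23.6 CPM for *Mvk*, 30.7 and 30.3 CPM for *Mvd*, 205.7 and 210.0 CPM for *Idi1*, 25.4 and 26.9 CPM for *Pmvk*, 112.9 and 126.4 CPM for *Fdft1* and 171.5 and 193.9 CPM for *Fdps*. These groups differ in both genotype and stage, so no test was made between them. *Acat2* showed the widest gap among the enzymes that fell in mutants at E10.0, with 137.3 CPM in E10.0 mutants and 171.9 CPM in E10.5 wild-type buds.

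**Figure D3:**
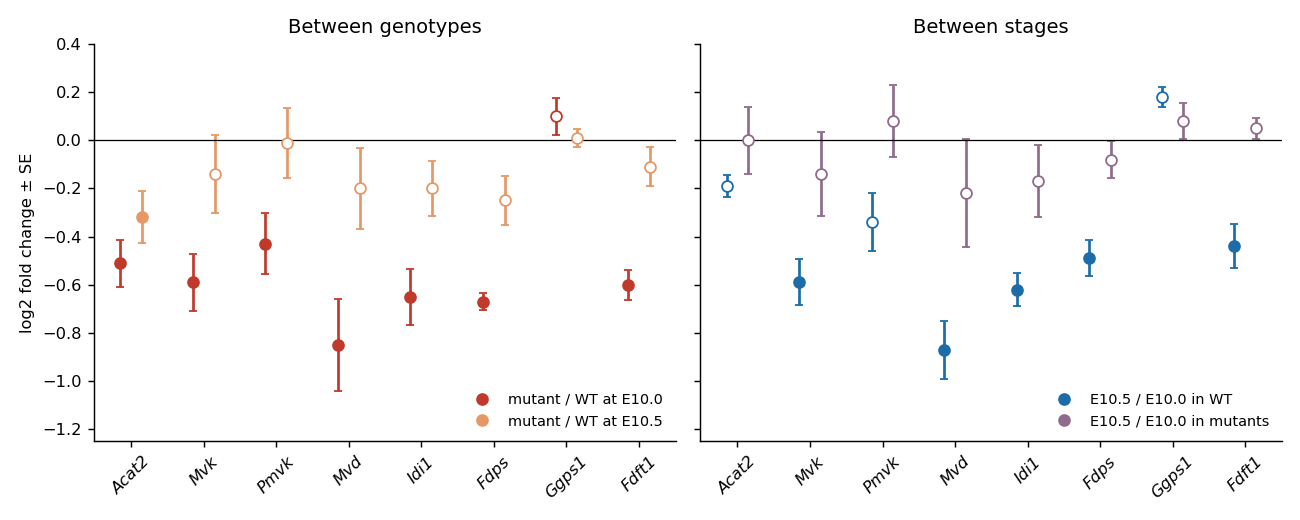
Log2 fold change with its SE (vertical axis) for each enzyme in pathway order, between genotypes at each stage (left) and between stages in each genotype (right). Filled points passed the call rule, which 7 enzymes did between genotypes at E10.0 and 1 did at E10.5, while between stages 5 did in the wild type and 0 in the mutants.

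Whether the genotype difference itself changed with stage was tested by the interaction of both factors with edgeR's quasi-likelihood test. Only *Fdft1* was called, with an interaction of 0.49 ± 0.102 on the log2 scale (adjusted *P*=0.0885), compared with 0.186% of all genes. The mutant deficit in *Fdft1* was thus larger at E10.0 than at E10.5. This call was kept in 3 of the 14 fits that left out 1 embryo, where the adjusted *P* ranged from 0.0731 to 0.368, and it was lost with replicates 1 to 3 alone (0.47, adjusted *P*=0.443). *Fdps* had an interaction of 0.41 (adjusted *P*=0.312), and was called when E10.5 mutant replicate 1 was left out (0.47, adjusted *P*=0.0992). The interaction was positive for 7 enzymes, with 0.65 for *Mvd*, 0.45 for *Mvk* and *Idi1*, 0.42 for *Pmvk* and 0.19 for *Acat2*, and it was -0.10 for *Ggps1*. Before adjustment 6 of the 8 enzymes had *P* under 0.05 in this edgeR test, compared with 5.76% of genes, but for all except *Fdft1* a change of the genotype difference between stages was not called after adjustment.

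Levels of different enzymes were compared as CPM per kilobase of exon, with lengths from GENCODE, whereas the study counted over refGene models. The *Fdft1* length of 2860 bases holds 769 bases shared with exons of *Ctsb*. The *Ggps1* length of 2391 bases holds 170 bases shared with exons of *Arid4b*. Reads there cannot be assigned to either gene, so *Fdft1* and *Ggps1* may be placed too low. The order of *Acat2* and *Fdft1* is thus not firm. In wild-type buds at E10.0, *Fdps* was the most abundant, at 221.1, followed by *Idi1* (112.9), *Acat2* (76.8), *Fdft1* (59.8), *Mvd* (31.3), *Pmvk* (22.6), *Ggps1* (18.9) and *Mvk* (13.3), and the embryo ranges of neighbours in this order did not overlap. In E10.0 mutants *Ggps1* was at 20.3 and stood in the fifth place, ahead of *Mvd* (17.4) and *Pmvk* (16.8). The ranges of these 3 genes overlapped in that group, as did those of *Idi1* (71.8) and *Acat2* (54.0). In wild-type buds at E10.5, *Ggps1* (21.3) was likewise in the fifth place, ahead of *Pmvk* (17.8) and *Mvd* (17.2), and the ranges of *Pmvk* and *Mvd* and those of *Idi1* (73.3) and *Acat2* (67.6) overlapped. The mutants at E10.5 had the order *Fdps* (132.0), *Idi1* (63.8), *Acat2* (54.1), *Fdft1* (41.0), *Ggps1* (21.4), *Pmvk* (17.7), *Mvd* (15.0) and *Mvk* (8.03), with overlap of *Idi1* and *Acat2* and of *Pmvk* and *Mvd*.

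**Figure D4:**
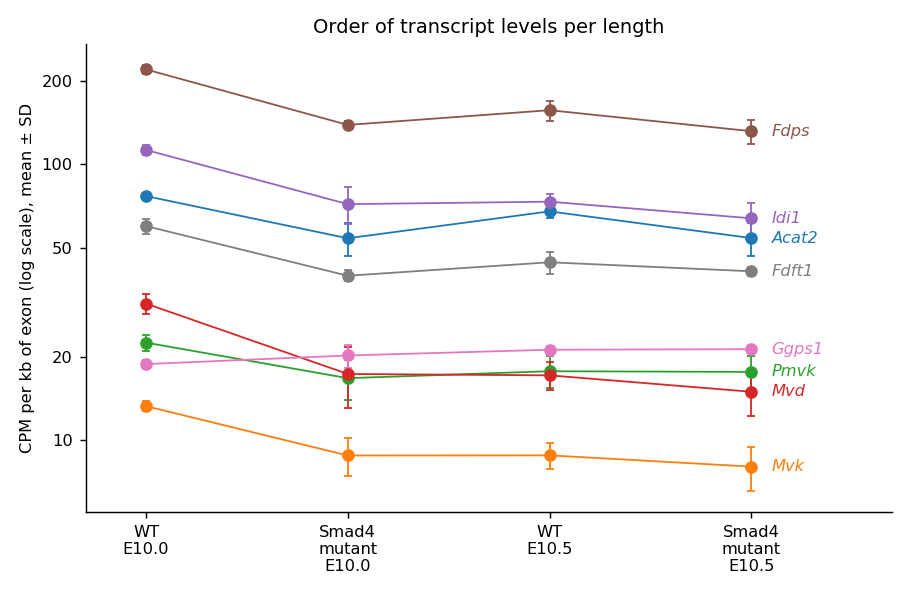
Mean CPM per kilobase of exon (vertical log axis) with SD for the 8 enzymes in the 4 groups; lines join the same gene across groups and are not time courses of single embryos. *Ggps1* is the seventh most abundant in wild-type buds at E10.0 (18.9) and stands in the fifth place in the other groups (20.3 to 21.4).

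As 7 of the 8 transcripts moved together at E10.0, the DNA before their start sites was read from RefSeq promoters (GRCm38.p6, 250 bases before each annotated start), which held 7 windows for 6 of the enzymes. No entry was matched for *Fdps* and *Fdft1*. The windows of 3 enzymes that fell at E10.0 and of *Ggps1*, which was not called, are shown because they hold 2 or more CCAAT boxes, the sequence bound by NF-Y, which acts together with SREBP at many sterol genes. Capitals mark CCAAT in either orientation, so ATTGG is a box on the opposite strand. The windows lie at chr5:114444019-114444268 (plus strand, *Mvk*), chr8:122443423-122443672 (minus strand, *Mvd*), chr13:8885356-8885605 (plus strand, *Idi1*) and chr13:14063489-14063738 (minus strand, *Ggps1*), and each is written 5′ to 3′ along its gene.
Mvk: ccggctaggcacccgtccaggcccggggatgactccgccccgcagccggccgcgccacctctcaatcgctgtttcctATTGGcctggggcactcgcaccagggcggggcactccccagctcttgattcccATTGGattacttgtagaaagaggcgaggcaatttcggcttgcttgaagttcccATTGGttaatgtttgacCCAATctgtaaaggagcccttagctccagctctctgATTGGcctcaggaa
Mvd: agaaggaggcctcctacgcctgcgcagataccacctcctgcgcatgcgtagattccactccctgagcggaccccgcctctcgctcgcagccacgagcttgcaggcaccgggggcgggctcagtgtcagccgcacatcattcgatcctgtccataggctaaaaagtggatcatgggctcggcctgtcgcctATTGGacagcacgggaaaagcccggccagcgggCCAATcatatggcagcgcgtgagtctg
Idi1: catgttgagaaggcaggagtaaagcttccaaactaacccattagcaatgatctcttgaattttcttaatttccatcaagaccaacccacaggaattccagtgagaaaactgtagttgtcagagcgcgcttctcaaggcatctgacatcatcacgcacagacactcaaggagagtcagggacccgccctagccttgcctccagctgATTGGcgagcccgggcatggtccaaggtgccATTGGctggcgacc
Ggps1: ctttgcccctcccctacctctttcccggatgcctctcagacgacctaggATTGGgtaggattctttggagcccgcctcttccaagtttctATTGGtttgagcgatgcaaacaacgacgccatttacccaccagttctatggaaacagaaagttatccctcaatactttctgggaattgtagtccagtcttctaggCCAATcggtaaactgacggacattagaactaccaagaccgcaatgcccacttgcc

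The *Mvk* window held 5 CCAAT boxes, that of *Ggps1* 3, and those of *Mvd* and *Idi1* 2 each. One of the windows of *Pmvk* (chr3:89454291-89454540, plus strand) held 1 box. The other *Pmvk* window (chr3:89459321-89459570) lies downstream of the start that follows the first window. It held no box, nor did the window of *Acat2*. Of all 32851 RefSeq mouse windows of this length, 33.8% held at least 1 CCAAT, 10.1% at least 2, 2.79% at least 3 and 0.840% at least 4. The GC box GGGCGG was found 2 times at *Mvk* and 1 time each at *Acat2*, *Mvd* and *Idi1*, compared with 32.7% of all windows holding it. Neither the sterol regulatory element TCACNCCAC, held by 1.05% of windows, nor the palindromic SMAD box GTCTAGAC, held by 0.167%, was found in any of the 7 windows on either strand, which says only that these letters are not in these windows. The motifs do not overlap one another in the windows shown, and boxes were found at *Ggps1*, whose transcripts were not called, as well as at enzymes that fell.

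Some of these genes share their start region or their reads with a neighbour. *Mmab*, an enzyme of vitamin B12 metabolism, is transcribed away from *Mvk* from a start 210 bases away, and its transcripts were also lower in mutants at E10.0, averaging 35.4 CPM in the wild type and 29.0 CPM in the mutants (log2 fold change -0.29, adjusted *P*=0.0663). This call was kept in 3 of 7 fits without 1 embryo (adjusted *P* up to 0.423). *Arid4b*, which encodes a chromatin protein, is divergent from *Ggps1* with starts 169 bases apart, and was higher in mutants at E10.0 (0.27, adjusted *P*=0.0549, kept in 3 of 7 fits without 1 embryo, up to 0.294) and higher at E10.5 than at E10.0 in the wild type (0.36, adjusted *P*=0.00583). The exons of *Arid4b* and *Ggps1* overlap over 170 bases, and those of *Fdft1* and of the lysosomal protease gene *Ctsb* over 769 bases. As reads were counted without regard to strand, reads in such overlaps cannot be assigned to either gene. *Ctsb* was not called at E10.0 (-0.20, adjusted *P*=0.161), nor was the pseudogene *9330133O14Rik*, divergent from *Mvd* with starts 234 bases apart (-0.36, adjusted *P*=0.187). The paralogs *Acat3*, with 6 to 24 reads per sample, and *Idi2*, with 0 to 16 reads, were below the level tested.

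The 8 enzymes were set beside other genes of the pathway and its products. Of the 12 enzymes that convert squalene to cholesterol, 10 were tested and 9 were lower in mutants at E10.0, with a median log2 fold change of -0.56. They ran from *Sc4mol*, the sterol C4-methyl oxidase (-0.82), to *Lbr*, the lamin B receptor with sterol reductase activity (-0.21, not called). Of the 9 genes for SREBP regulation and lipoprotein uptake, 8 were tested and 5 were lower, with a median of -0.47. *Insig1*, whose product holds SREBP in the endoplasmic reticulum, had a log2 fold change of -0.79, and its paralog *Insig2* had the highest value of the list (0.02, not called). The list for protein prenylation and for dolichol and coenzyme Q synthesis held 14 genes, of which *Icmt*, *Rce1* and *Zmpste24* process proteins that are already prenylated. Of these 14, 1 was lower and the median was -0.03. This was *Coq2* (-0.41, called in 5 of 7 fits without 1 embryo), which attaches the isoprenoid tail of coenzyme Q, and the highest value was that of *Pdss1*, which makes that tail (0.27, not called). No gene of these lists was called higher at E10.0. A test of the difference between the lists was not made.

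In the wild type between stages, 8 sterol enzymes were lower at E10.5, from -0.83 for the lanosterol synthase *Lss* to -0.12 for *Lbr* (not called), with a median of -0.51 compared with -0.46 for the 8 enzymes before squalene and -0.01 for all genes. Of the SREBP and uptake genes, 4 were lower, with a median of -0.41, among them *Insig1* (-0.62), and the highest value was that of *Insig2* (0.04, not called). Of the prenylation, dolichol and coenzyme Q genes, 3 were lower, with a median of -0.08. These were *Coq2* (kept in 3 of 6 fits without 1 embryo), *Rabggta* (-0.34), a subunit of the enzyme that prenylates RAB proteins, and the protease gene *Rce1* (-0.31). The values ran from *Coq2* (-0.39) to the prenyltransferase subunit gene *Pggt1b* (0.15). At E10.5 between genotypes, the calls in these lists were 1 sterol enzyme (*Tm7sf2*, a sterol reductase, -0.41, kept in 2 of 7 fits without 1 embryo) and *Coq2* (-0.50). Between stages in the mutants, 1 sterol enzyme, 2 of the SREBP and uptake genes and 3 genes of the prenylation, dolichol and coenzyme Q list were lower, among them *Coq2* (-0.48). For *Lss* and *Dhcr7*, the last enzyme of the route through 7-dehydrocholesterol, the interaction of stage and genotype was also called (0.59 and 0.54, adjusted *P*=0.0683 for both), but it held in 4 of the 14 fits without 1 embryo for *Lss* (adjusted *P* up to 0.261) and in 3 of 14 for *Dhcr7* (up to 0.283).

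**Figure D5:**
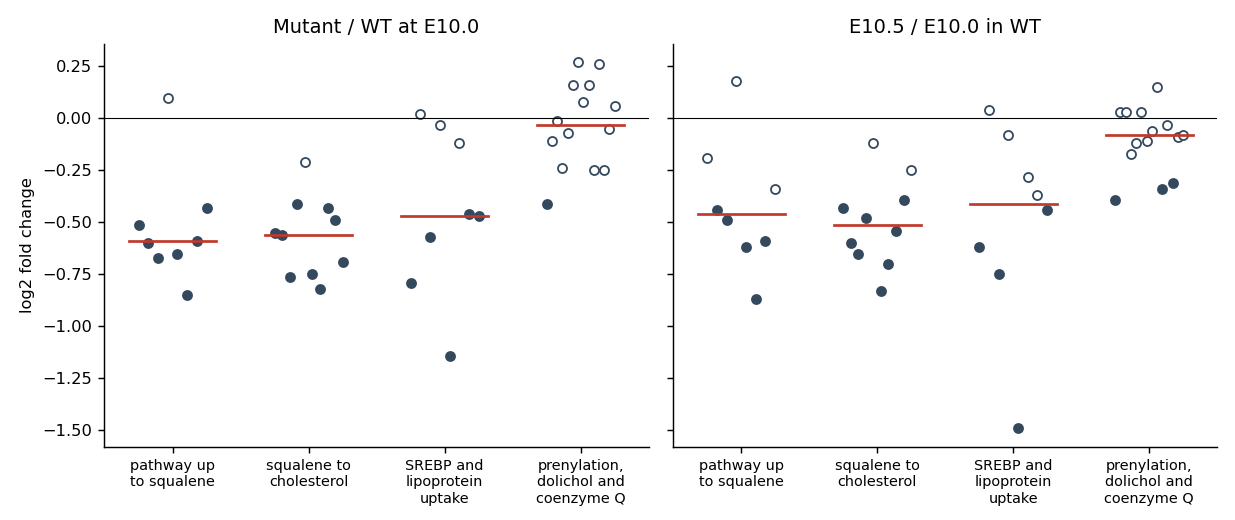
Log2 fold changes (vertical axis) of the tested genes of 4 lists, for mutant relative to wild type at E10.0 (left) and for E10.5 relative to E10.0 in the wild type (right). Points are genes, filled where called, and red lines are list medians: -0.59, -0.56, -0.47 and -0.03 at E10.0, and -0.46, -0.51, -0.41 and -0.08 between stages.

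Across the 14 embryos, the mean of the standardized log2 CPM of the 8 enzymes was followed most closely by *Fdps* (Pearson *r*=0.987) and *Fdft1* (0.949) among its own members and least by *Ggps1* (-0.436). Each enzyme is itself part of this mean. Over the 11 embryos outside the wild-type group at E10.0, *r* was 0.933 for *Fdps*, 0.708 for *Fdft1*, 0.337 for *Pmvk* and 0.286 for *Ggps1*. The negative value of *Ggps1* was thus not seen among these embryos. Outside the lists above, the 6 genes with the highest correlation were *Lipg* (0.950), *Abcc10* (0.934), *Zfp78* (0.928), *BC022687* (0.926), *Dpagt1* (0.924) and *Aacs* (0.921). *Lipg* averaged 10.9 CPM in the wild type at E10.0 and 6.67, 6.77 and 5.65 CPM in E10.0 mutants, E10.5 wild type and E10.5 mutants. *Aacs* averaged 63.2 CPM in the first of these groups and 34.7, 33.6 and 27.0 CPM in the others. As both were chosen by their correlation with the enzymes, their high wild-type level at E10.0 follows from the choice and is not a separate result. These correlations are a description, since all 14 points share the same libraries and the wild-type group at E10.0 stands apart. Over the 11 embryos of the other 3 groups, *r* was 0.574 for *Aacs*, 0.596 for *Zfp78*, 0.659 for *Dpagt1*, 0.669 for *Abcc10*, 0.679 for *Lipg* and 0.789 for *BC022687*.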

How the data were processed

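RNA-seq counts of 14 forelimb bud samples, 1 embryo each, were analysed, with groups taken from the sample labels. The authors deposited raw counts per gene symbol, made from single-end polyA reads aligned to mm9 with TopHat2 2.0.13 (the submitters' processing notes name this tool, HTSeq and mm9) and counted without regard to strand. The 5 entries of unassigned reads in each sample, equal to 14.8% to 22.0% of its reads, were kept out of library sizes. Of the 23284 symbols, 23166 were placed on a chromosome. After removal of the 1041 symbols of the X, Y and mitochondrial chromosomes, 12393 genes reached 1 CPM in 3 or more samples and were tested in edgeR 4.0.16 (R 4.3.3). TMM factors (0.934 to 1.04) and dispersions (prior df 10) were estimated over all 14 samples. Groups were compared by edgeR's exact test, which the study's methods name, adjusted over all genes by Benjamini-Hochberg, and called at FDR 0.1 and 1.2-fold; the interaction was tested by edgeR's quasi-likelihood test at the same FDR. SEs of log2 fold changes come from replicate variances of log2(CPM + 1). Exon lengths and mm9 positions come from GENCODE vM1. The functions were tested on simulated data. *P*-values set each group difference against the spread between embryos, as estimated over all 14 samples and not only over the groups compared. Depth enters only through counting error, which is small for the 8 enzymes.

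All 8 enzymes were named in every comparison, with *Smad4*, paralogs, neighbours that overlap or start within 1000 bases on the opposite strand, the extremes of each list (passing over genes that are not reported here) and the 6 genes most like the enzymes. The enzymes and lists were chosen with earlier results of these data known. The labels name *Smad4*flox/flox females for the cross, and the study's methods name *Smad4*flox/+ females. Samples share replicate numbers. Same-numbered samples of different genotypes did not deviate together (correlations of -0.260 to 0.174), nor did wild-type samples across stages (-0.283 to -0.0785). Same-numbered mutants across stages had correlations of 0.571, 0.611 and 0.269. Differently numbered samples across stages ran from -0.587 to 0.383, a range that holds the third value. The numbers were tried as pairing in an alternative fit of every comparison, although these are different embryos and only the mutants across stages had such correlations. Whether the *Rn45s* shares of replicates 4 and 5 entered these correlations was not tested. In the mutant stage comparison the block changed no call among the enzymes. No 2 samples of a group were as close as sampling noise (the chi-square divided by its degrees of freedom was 12.9 or more). Alternatives were the quasi-likelihood test, DESeq2 1.42.0, RLE size factors, no filter, only the groups compared, a replicate block, replicates 1 to 3 only, *Rn45s* left out, and leaving out each embryo in turn.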

Additional observations from a re-analysis of the deposited data

Results flagged for a closer look

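The difference between genotypes in *Fdft1*, the squalene synthase gene, was called as differing between stages, in a call that was not secure. It was kept in 3 of the 14 fits that left out 1 embryo (adjusted *P* up to 0.368 by edgeR's quasi-likelihood test). The other 7 enzymes were not called, although their interactions ran from -0.10 for *Ggps1* to 0.65 for *Mvd*. The interaction of stage and genotype was 0.49 on the log2 scale (edgeR's quasi-likelihood test, adjusted *P*=0.0885), and the mutant embryos were lower in 4 of 4 cases at E10.0, whereas the genotypes overlapped at E10.5. Each enzyme was also examined for a single embryo far from the rest of its group in the 16 sets of 4 mutant embryos, and none stood apart by Dixon's test, where chance gives about 1 in 20.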

How the results depend on the processing

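The counts of called enzymes at E10.0 (7) and in the wild type between stages (5) stayed within 1.5-fold under every alternative. At E10.5 the count of 1 became 0 with the quasi-likelihood test, DESeq2, RLE size factors or no filter, and 0 to 1 when 1 embryo was left out. Between stages in the mutants the count of 0 ranged from 0 to 1 on leaving out 1 embryo. The interaction count of 1 became 2 with DESeq2, 0 with RLE size factors, no filter, the replicate block, replicates 1 to 3 only or *Rn45s* left out, and 0 to 2 on leaving out 1 embryo. Values near zero changed sign: *Pmvk* at E10.5 (0.000769 with *Rn45s* left out, -0.09 to 0.10 without 1 embryo), *Ggps1* at E10.5 (-0.00177 to 0.04), *Acat2* between stages in the mutants (-0.000183 with DESeq2, -0.000177 with RLE size factors, -0.00341 with no filter, -0.01 with the block, -0.07 to 0.07 without 1 embryo) and *Pmvk* in that comparison (-0.00118 to 0.17). With the replicate block, residual degrees of freedom were 2 between genotypes and 4 between stages. The enzymes called were then 7 at E10.0, 1 at E10.5 (*Fdps*, -0.37, adjusted *P*=0.0625, in place of *Acat2*, -0.17, adjusted *P*=0.185), 6 in the wild type (*Pmvk* added, -0.35, adjusted *P*=0.0554) and 0 in the mutants, with *Fdft1* lost from the interaction (0.54, adjusted *P*=0.351). Only the groups compared also gave 6 in the wild type, with *Pmvk* at -0.34. Causes of these shifts were not tested. Over all genes, the calls at E10.0 (819, 406 lower and 413 higher) became 1990 with the block (1210 lower, 780 higher, so that the share of genes called lower went from 3.28% to 9.76%), 2018 with replicates 1 to 3 only (1253 lower, 765 higher, 10.2%) and 254 to 1062 without 1 embryo, and 313 lower and 519 higher with *Rn45s* left out. Those at E10.5 (462) ranged from 286 to 468 without 1 embryo. Those between stages in the wild type (1256) became 1899 with the block and 1932 with only the groups compared, and 484 to 1357 without 1 embryo. The interaction calls (23) became 87 with DESeq2, 39 with no filter, 0 with the block, 6 with replicates 1 to 3 only and 7 to 34 without 1 embryo. Fits that left out 1 embryo kept 2 or more per group.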
